A study of Mus musculus with 8 samples.

Results

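Hgf, Ptn, Mdk, Nrg1, Hbegf and Areg encode secreted or shed growth factors that can act on liver epithelium, and Met and Egfr encode receptors for some of them. These 8 genes were taken as a fixed list of names, and their probes were found through the RefSeq transcript accession carried by each probe. All 8 had a probe, 12 probes in all, out of 20062 named genes and 39227 probes measured in the series. Hgf, Met, Nrg1, Hbegf and Areg had 1 probe each, Ptn and Mdk 2, and Egfr 3.

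Hepatocyte growth factor (Hgf) is made by mesenchymal and sinusoidal cells of the liver and signals through the receptor tyrosine kinase Met on hepatocytes and their precursors. Pleiotrophin (Ptn) and midkine (Mdk) form a family of heparin-binding growth factors that are abundant in fetal mesenchyme and decline after birth in many organs. Neuregulin 1, HB-EGF and amphiregulin belong to the EGF family, whose members bind receptors of the ErbB family, of which Egfr is the founding member.

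RNA was measured on 8 mouse 1-colour arrays, 1 per group. On 5 arrays the RNA came from mouse liver cells that carry p75NTR and lack both CD45 and Ter119, sorted after collagenase digestion. The stages were P1, in newborns, and E17.5, E14.5, E13.5 and E11.5 in fetuses. The other arrays were of vitamin A-positive cells sorted from adult liver (adult HSC, hepatic stellate cells), cultured fibroblasts of embryonic skin (MEF), and purified mesenchymal stem cells of bone marrow (MSC). No genetic change, treatment, strain or pooling of animals is given for any group in the sources used here, and the exact ages of the adult, MEF and MSC donors are likewise not given.

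Each group is a single array, so no value below has a spread between animals. A level is the log2 signal relative to the 75th percentile of its array, so 0 is a spot as bright as that percentile, and levels are compared between arrays for the same probe only. Between 58.8% and 64.5% of spots were well above background on an array and 0 were saturated. The 4 fetal arrays shared slide 1, and P1, adult HSC, MEF and MSC shared slide 2. For probes printed in 10 spots the typical SD between spots of an array was 0.051 to 0.104 at levels above -4 and 0.322 below -4, which covers measurement within an array only. The 12 stellate cell markers were well above background on all 6 liver arrays, with a summed level of 234 to 1322 times the 75th percentile signal. The sums were 25.9 in MEF and 4.28 in MSC. Ngfr, 1 of the 12, encodes p75NTR, so its presence on the 5 p75NTR arrays was set by the sort. The list was chosen with earlier results of these data known, so it describes the label and is no independent check of it. Of 11 leukocyte and Kupffer cell markers, 3 to 7 were well above background on a liver array, with summed levels of 2.99 to 11.4, against 20.8 in MEF and 4.85 in MSC. Itgam (1.32 to 3.25), Csf1r and C1qb were so on all 6, while Ptprc, which encodes the CD45 used to sort cells out, was so on none. Hepatocyte transcripts were present in the sorts: 14 of 15 markers were well above background on each of the 5 p75NTR arrays and 10 on the adult HSC array. Erythroid transcripts were present too, although cells with the erythroid antigen Ter119 were sorted out. Of 13 erythroid markers, 11 to 13 were well above background on a p75NTR array, with summed levels of 58.7 to 442. In sorted bulk RNA, a change in the share of a cell type and a change in RNA per cell cannot be told apart.

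**Figure D1:**
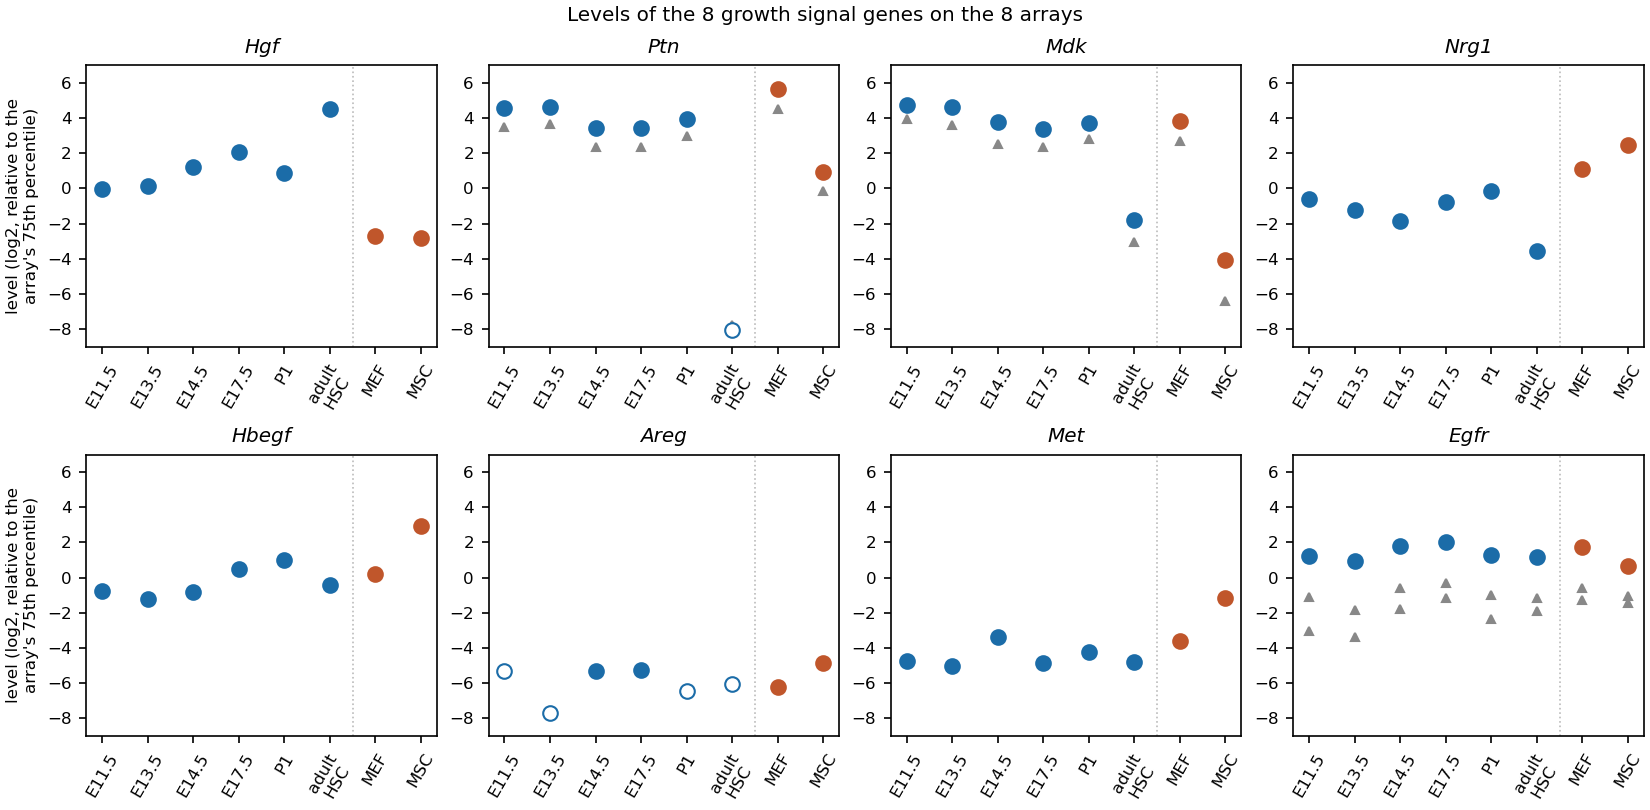
Level of each of the 8 genes (y axis, log2 signal relative to the 75th percentile of the array) on each of the 8 arrays (x axis), 1 array per point, liver-derived arrays in blue and MEF and MSC in orange, open circles where the probe was not well above background and grey triangles for further probes of the gene. Hgf is highest in adult HSC at 4.49, where Ptn is not well above background and Mdk is at -1.81.

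Hgf was higher on every liver array than in MEF and MSC, and highest in adult HSC. Its level was -0.04 at E11.5, 0.12 at E13.5, 1.23 at E14.5, 2.09 at E17.5, 0.88 at P1 and 4.49 in adult HSC, against -2.69 in MEF and -2.84 in MSC. The sides did not overlap, and MEF and MSC lay next to each other at the bottom. Among the p75NTR arrays each later fetal stage read higher, up to E17.5, and P1 minus E17.5 was -1.22 on the log2 scale.

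Adult HSC held 12.3-fold more Hgf signal than the P1 cells, 5.28-fold more than the E17.5 cells, 145-fold more than MEF and 161-fold more than MSC. The difference between the 6 liver arrays and MEF and MSC was 4.23 ± 1.12 (SE, log2), an 18.7-fold difference of means, with an unadjusted p of 0.00565 and an adjusted p of 0.122 in the limma fit across all genes. It therefore missed the threshold of 0.05. The spread in this fit comes from arrays of different stages and cell types. Adult HSC both stood highest and widened the spread: without that array the difference was 3.62 at a limma adjusted p of 0.0311, within a range of 0.0311 to 0.541 over 18 alternatives. With slide as a block the difference was 5.45 (limma adjusted p = 0.117). MEF and MSC are both on slide 2, so this is the same estimate as on slide 2 alone. It rests on P1 and adult HSC against MEF and MSC. The slope over the 5 stages was 0.38 ± 0.19 (SE, log2 per stage; limma adjusted p = 0.269), and 0.75 over the 4 fetal arrays alone (limma adjusted p = 0.112, in a range of 0.112 to 0.797 over 13 alternatives). P1 is the only stage on slide 2, so birth and slide cannot be told apart.

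The order of the 8 arrays by Hgf was the same as their order by summed stellate cell markers, which was 1322 in adult HSC, 537 at E17.5, 456 at E14.5, 266 at P1, 253 at E13.5, 234 at E11.5, 25.9 in MEF and 4.28 in MSC. Colec11 and Angptl6, among the brightest of these markers, kept this order, while others did not. Ngfr read 4.97 at E11.5 and 4.83 at E17.5, and among the liver arrays Lhx2 (3.30) and Hand2 (2.06) were lowest at P1. Endothelial markers, of another liver cell that makes Hgf, summed to 264 in adult HSC, 67.3 at E17.5, 40.6 at E14.5 and 19.4 to 27.5 on the other p75NTR arrays, against 4.43 in MEF and 1.42 in MSC. That sum leaned on its brightest gene, Plvap, at 7.72 in adult HSC, 5.21 at E17.5, 4.79 at E14.5 and 3.44 to 3.70 on the other p75NTR arrays. Plvap, Clec4g and Eng read higher in adult HSC than at E11.5, and every other endothelial marker read lower. The endothelial junction gene Cdh5 was at -0.69 at E11.5 and -3.97 in adult HSC. Other sums moved with Hgf as well. Erythroid markers summed to 58.7, 123, 161 and 442 over the fetal stages and to 71 at P1, and to 27 in adult HSC, where Hgf was highest. Immediate early and stress genes summed to 103, 123, 246 and 447 over the fetal stages, to 441 at P1 and to 670.2 in adult HSC, against 21.9 in MEF and 35.3 in MSC. The part of these cell types and genes in the Hgf level was not tested.

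The promoter of Hgf is shown because its adult level went the opposite way to that of Ptn and Mdk. The RefSeq promoter table (build GRCm38.p6) matched 5 of the 8 genes with 6 windows that may be printed, each covering 250 bases upstream of a transcript start. The windows were searched on both strands for 6 short motifs. The first was TATAAA, the core promoter element that positions the polymerase, found in 12.4% of the 32851 windows of this length in the table. The cyclic AMP response element TGACGTCA was found in 1.55% of these windows. The element bound by AP-1 factors, written TGANTCA, was found in 6.75%. The element bound by Sp1-type factors, written GGGCGG, was found in 32.7%. An element bound by basic helix-loop-helix factors, written CAGCTG, was found in 13%, and an element bound by zinc finger factors of the Gata family, written AGATAA, in 9.99%. The upstream window of Hgf, on the plus strand at chr5:16553245-16553494, and that of Ptn, on the minus strand at chr6:36810180-36810429, held none of the 6, so both are printed without capitals.
Hgf: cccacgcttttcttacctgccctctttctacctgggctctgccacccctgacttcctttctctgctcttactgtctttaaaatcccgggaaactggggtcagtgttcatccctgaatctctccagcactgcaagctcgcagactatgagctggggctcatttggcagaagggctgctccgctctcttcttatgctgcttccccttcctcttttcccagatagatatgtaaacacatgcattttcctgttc
Ptn: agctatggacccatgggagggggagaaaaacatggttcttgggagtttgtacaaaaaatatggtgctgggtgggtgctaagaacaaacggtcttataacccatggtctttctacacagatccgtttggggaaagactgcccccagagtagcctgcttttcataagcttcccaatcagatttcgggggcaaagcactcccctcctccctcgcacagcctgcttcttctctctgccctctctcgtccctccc
A match or its lack describes these letters only.

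Ptn was high in fetal and newborn liver cells and in MEF, and undetected in adult HSC. Its level was 4.59 at E11.5, 4.64 at E13.5, 3.42 at E14.5, 3.44 at E17.5, 3.94 at P1, 5.67 in MEF and 0.96 in MSC. In adult HSC it read -8.05, not well above background. The 5 p75NTR arrays lay within 1.22 of each other, above MSC and below MEF.

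From P1 to adult HSC the Ptn signal was at least 942-fold lower, a bound set by the lowest signal well above background on the adult array. That bound holds for the processed signal: with the normexp correction, which lifts dim spots, the log2 difference was -6.41. MEF exceeded adult HSC by at least 3126-fold. The second Ptn probe gave the same picture, with 2.35 to 3.67 on the p75NTR arrays, 4.53 in MEF, -0.17 in MSC and -7.75, again not well above background, in adult HSC. The fetal and newborn cells were sorted by p75NTR and the adult cells by vitamin A, so stage and sort cannot be told apart here.

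Mdk, the paralog of Ptn, had a similar course within the liver. It read 4.76 at E11.5, 4.62 at E13.5, 3.75 at E14.5, 3.38 at E17.5, 3.71 at P1, -1.81 in adult HSC, 3.81 in MEF and -4.04 in MSC. Unlike Ptn it was still well above background in adult HSC, and its lowest array was MSC. MEF fell among the p75NTR arrays.

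Adult HSC carried 45.9-fold less Mdk signal than P1 cells, and MSC 231-fold less than MEF. With normexp these log2 differences shrank from -5.52 to -4.86 and from -7.85 to -6.21. In the second Mdk probe the levels were 3.92 at E11.5 and 2.33 at E17.5, with -3.06 in adult HSC, 2.71 in MEF and -6.38 in MSC. Over the 5 stages the slope of Mdk was -0.33 ± 0.10 (SE, log2 per stage), with an unadjusted limma p of 0.0258 and an adjusted p of 0.131. Its sign held in all 13 alternatives, with values from -0.50 to -0.14. Changes of filter or prior, and leaving out the middle stage E14.5, cannot move this slope. The slope of Ptn was -0.25 ± 0.14, with a limma adjusted p of 0.316. Both genes had their largest step between E13.5 and E14.5, where the later array was 2.33-fold lower for Ptn and 1.82-fold lower for Mdk. P1 was above E17.5 for both, 1.41-fold and 1.25-fold.

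Neither Ptn nor Mdk separated liver cells from other mesenchyme. The liver difference was -1.32 ± 3.39 (SE, log2) for Ptn, with a limma adjusted p of 0.851, and 3.18 ± 2.30 for Mdk, with 0.463. These signs rest on single arrays: Ptn became 0.69 without adult HSC and 1.03 without MEF, and Mdk became -0.74 without MSC. With slide as a block, which gives the same estimate as slide 2 alone, Ptn was -5.37 and Mdk 1.06. Across the 8 arrays the 2 genes had a Pearson correlation of 0.71, and across the 5 p75NTR arrays 0.93. These are descriptions that share arrays and scaling.

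Mesothelial markers, of the cells that cover the fetal liver, were also lower in adult HSC, with a summed level of 8.4 to 22.7 on the p75NTR arrays and 0.466 in adult HSC. The sum came mostly from 2 genes. The transcription factor Wt1 read 1.40 to 3.48 on the p75NTR arrays and -3.79 in adult HSC, and Alcam 2.19 to 3.37 and -1.35. Msln, Upk1b, Gpm6a and Podxl were each not well above background on some of the p75NTR arrays. Hepatocyte and hepatoblast markers summed to 219 to 1486 on the p75NTR arrays and to 55 in adult HSC. An alternative without Dlk1, which MEF also carried (6.93), was chosen after seeing the data. Its sums were 14.2 at E11.5, 81.4 to 1274 on the other p75NTR arrays and 55 in adult HSC. The adult sum lay above that of E11.5, but it came mostly from Trf (5.65 in adult HSC, 1.89 at E11.5), so this order rests on Trf. The part of these cells in the low adult values of Ptn and Mdk was not tested.

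Nrg1, a ligand of Erbb3 and Erbb4, was lower in the liver cells. It read -0.59 at E11.5, -1.22 at E13.5, -1.86 at E14.5, -0.79 at E17.5, -0.16 at P1 and -3.58 in adult HSC, against 1.08 in MEF and 2.49 in MSC. All 6 liver arrays were below both other arrays, and adult HSC was lowest. Among the p75NTR arrays E14.5 was lowest.

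The liver difference of Nrg1 was -3.15 ± 0.88 (SE, log2), with the mean of the liver arrays 8.9-fold lower, an unadjusted limma p of 0.00754 and an adjusted p of 0.134. Over 18 alternatives the value stayed between -3.86 and -2.36. Changes of filter or prior, and the mean of all probes for a single probe, cannot move it. The difference was -3.66 with slide as a block (limma adjusted p = 0.154), which is the same estimate as on slide 2 alone. The slope over the stages was 0.13 ± 0.19, and it turned to -0.12 without P1. Adult HSC had 10.7-fold less signal than P1; with the normexp background correction that log2 difference shrank from -3.42 to -1.86, which is under 4-fold.

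Hbegf, the ligand HB-EGF, was well above background on every array and read higher at E17.5 and P1 than at the earlier stages. Its level was -0.76 at E11.5, -1.22 at E13.5, -0.82 at E14.5, 0.47 at E17.5, 0.98 at P1 and -0.40 in adult HSC, with 0.20 in MEF and 2.95 in MSC. MSC stood clear of the rest, and MEF lay among the liver arrays. The 3 youngest stages were the lowest of all.

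P1 cells had 3.33-fold more Hbegf signal than E11.5 cells, the largest ratio among the 7 genes measured on both arrays, and the largest step was the 2.44-fold one from E14.5 to E17.5. The slope was 0.52 ± 0.15 (SE, log2 per stage), with an unadjusted limma p of 0.0197 and an adjusted p of 0.12, which missed the threshold. It stayed positive in 13 alternatives, at 0.31 to 0.79. Changes of filter or prior, the mean of all probes for a single probe, and leaving out the middle stage E14.5 cannot move this slope. The liver difference was -1.87 ± 0.82, with a limma adjusted p of 0.262.

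Immediate early and stress genes, which respond to tissue dissociation, were also higher at the late stages: their summed level was 103 at E11.5, 123 at E13.5, 246 at E14.5, 447 at E17.5 and 441 at P1. They did not follow Hbegf elsewhere, with 670.2 in adult HSC and 35.3 in MSC, where Hbegf was highest. Their part in the stage pattern was not tested.

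Areg, the ligand amphiregulin, was at the edge of detection throughout. It was well above background on 4 of the 8 arrays, with -5.30 at E14.5, -5.22 at E17.5, -6.20 in MEF and -4.84 in MSC. The remaining readings, not well above background, were -5.31 at E11.5, -7.68 at E13.5, -6.42 at P1 and -6.06 in adult HSC. No group of arrays stood apart, and the scanner software's own error for this spot ran from 11.8% in MSC to 63.0% at E13.5.

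Neither fit called Areg. The liver difference was -0.48 ± 0.72 (SE, log2; limma adjusted p = 0.728) and the slope 0.02 ± 0.32 (limma adjusted p = 0.969). Both signs changed with the normexp background correction, to 0.72 and -0.31. Its promoter, on the plus strand at chr5:91139349-91139598 of GRCm38.p6, is shown because it held 4 of the 6 motifs while the gene was barely detected. Capitals mark CAGCTG at -112, TGACGTCA at -61, GGGCGG at -52 and TATAAA at -31, the position of each first base counted back from the transcript start, and none of these matches overlap.
Areg: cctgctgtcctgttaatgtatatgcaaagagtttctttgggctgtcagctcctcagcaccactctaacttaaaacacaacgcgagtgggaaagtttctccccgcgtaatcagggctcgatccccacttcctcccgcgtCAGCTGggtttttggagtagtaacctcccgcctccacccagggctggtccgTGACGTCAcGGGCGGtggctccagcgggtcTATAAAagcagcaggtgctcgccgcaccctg
Among the other windows, that of Met held TGANTCA at -54 and 3 copies of GGGCGG, and that of Egfr held GGGCGG at -9.

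Met, the receptor of Hgf, was well above background on all 8 arrays and highest in MSC. Its level was -4.73 at E11.5, -5.01 at E13.5, -3.37 at E14.5, -4.83 at E17.5, -4.25 at P1, -4.78 in adult HSC, -3.61 in MEF and -1.18 in MSC. E14.5 was the only liver array above MEF, so the sides overlapped.

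The Met probe is printed in 10 spots, and the SD between the spots kept on an array was 0.05 to 0.22. By their spots MSC, from -1.27 to -1.11, stood apart from every other array. E14.5 (-3.51 to -3.16) and MEF (-3.77 to -3.44) overlapped each other and no other array. E13.5 (-5.15 to -4.78), E17.5 (-5.05 to -4.64), adult HSC (-5.08 to -4.51) and E11.5 (-5.04 to -4.31) overlapped among themselves, so their order is not resolved. P1 (-4.62 to -3.82) overlapped E11.5 and adult HSC.

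MSC had 5.39-fold more Met signal than MEF, and 12.1-fold more than adult HSC. With the normexp background correction the log2 difference from MEF went from 2.43 to 1.42, under 4-fold. The liver difference was -2.10 ± 0.67 (SE, log2), with an unadjusted limma p of 0.0147 and an adjusted p of 0.166. Without MEF, which leaves MSC alone on that side, it was -3.32 at a limma adjusted p of 0.026, within a range of 0.026 to 0.838 over 18 alternatives, and with normexp it was -0.24. With slide as a block the difference was -2.12 (limma adjusted p = 0.217), which is the same estimate as on slide 2 alone. The slope over the stages was 0.11 ± 0.19 (limma adjusted p = 0.741), and -0.27 with normexp.

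At E14.5 Met was 3.12-fold above E13.5 and then 2.75-fold lower at E17.5. The summed level of hepatocyte and hepatoblast markers, cells that carry Met, peaked on the same array: 219 at E11.5, 596 at E13.5, 1486 at E14.5, 324 at E17.5, 267 at P1 and 55 in adult HSC. Dlk1, at 7.39 to 7.73 on every p75NTR array and 6.93 in MEF, made up most of the smaller sums; without it they were 14.2 at E11.5, 429 at E13.5, 1274 at E14.5, 134 at E17.5, 81.4 at P1, 55 in adult HSC and 3.51 in MEF, still highest at E14.5. The adult sum came mostly from Trf (5.65). All 15 markers were measured, and the defining genes Alb and Hnf4a read 7.19 and 3.05 at E14.5, while Hnf4a was not well above background in adult HSC, MEF or MSC. Met read -4.73 at E11.5, where the sum without Dlk1 was lowest among the liver arrays. Its lowest level, -5.01, was at E13.5, where that sum was 429, above every liver array but E14.5. The part of hepatocyte RNA in the E14.5 peak was not tested.

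**Figure D2:**
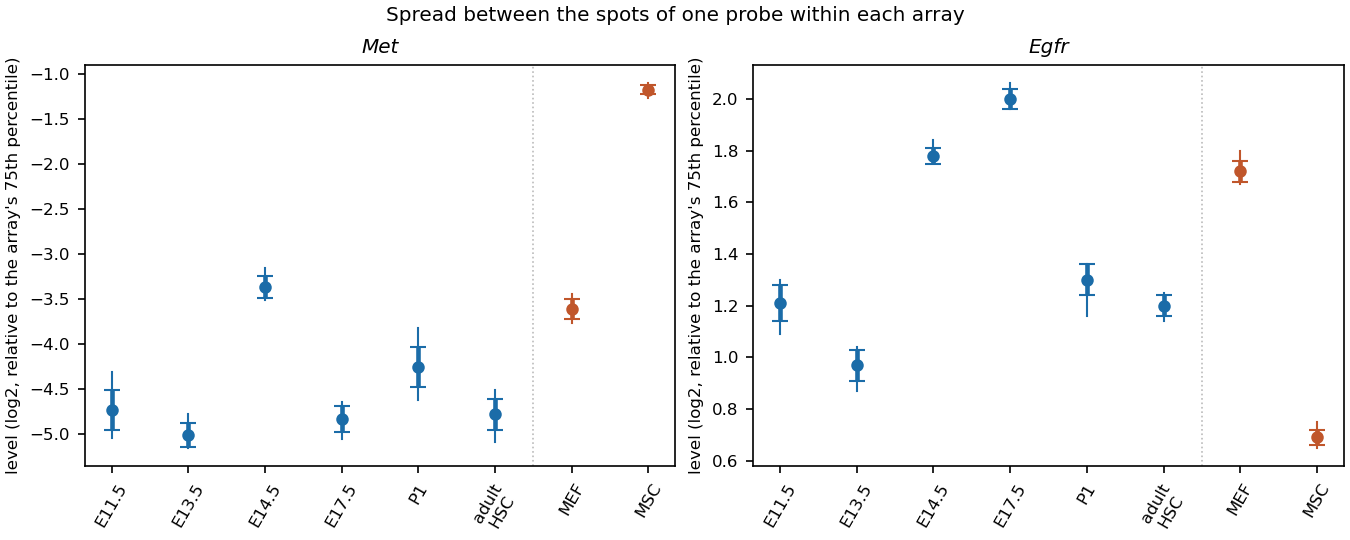
Level of the Met probe and of the brightest Egfr probe (y axes, log2 signal relative to the 75th percentile of the array) on each of the 8 arrays, with the mean of the 8 to 10 spots kept as a point, 1 SD between spots as a capped bar and the full range as a thin line. The bars show measurement error within an array and no biological spread. MSC is highest for Met at -1.18 and lowest for Egfr at 0.69.

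Egfr, the receptor of Hbegf and Areg, varied least of the 8 genes, over 1.31 on the log2 scale. Its brightest probe read 1.21 at E11.5, 0.97 at E13.5, 1.78 at E14.5, 2.0 at E17.5, 1.30 at P1, 1.20 in adult HSC, 1.72 in MEF and 0.69 in MSC. The liver arrays covered MEF but not MSC. With an SD between spots of 0.03 to 0.07, E17.5 exceeded the other arrays and MSC fell below them by more than the range of spots, while E11.5, P1 and adult HSC overlapped.

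The other Egfr probes rest on another RefSeq transcript of the gene. They read from -1.86 to -0.31 and from -3.39 to -1.13, and both were lowest at E13.5 and highest at E17.5. All 3 probes therefore placed the peak of the liver arrays at E17.5, and they differed on MSC, which was lowest only for the brightest. The liver difference was 0.21 ± 0.39 (SE, log2; limma adjusted p = 0.795) for the brightest probe and -0.18 and -0.92 for the others, so the sign depends on the probe, and it also changed under median normalization, to -0.17. The slope was 0.12 ± 0.12, with a limma adjusted p of 0.574.

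Counts over the 8 genes stand here beside those over all genes tested. Between liver cells and the other mesenchyme, limma called 0 of 8 at an adjusted p under 0.05, against 1.57% of the 16478 genes tested, and 3 of 8 (Hgf, Nrg1 and Met) had an unadjusted p under 0.05, against 19.6%. The sides did not overlap for 2 of 8, Hgf upward and Nrg1 downward, against 23.2% of genes, of which 12.8% were higher and 10.4% lower in liver. The median difference was -0.90 over the 8 genes and 0.02 over all genes.

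For the slope over the stages, limma called 0 of 8 and 0% of 15496 genes, and 2 of 8 (Mdk and Hbegf) had an unadjusted p under 0.05, against 28.1% (12.4% upward, as Hbegf, and 15.6% downward, as Mdk). The median slope was 0.12 over the 8 genes and -0.03 over all. P1 and E11.5 differed at least 4-fold for 0 of the 7 measured, against 10.7% of genes (7.36% higher and 3.31% lower at P1).

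**Figure D3:**
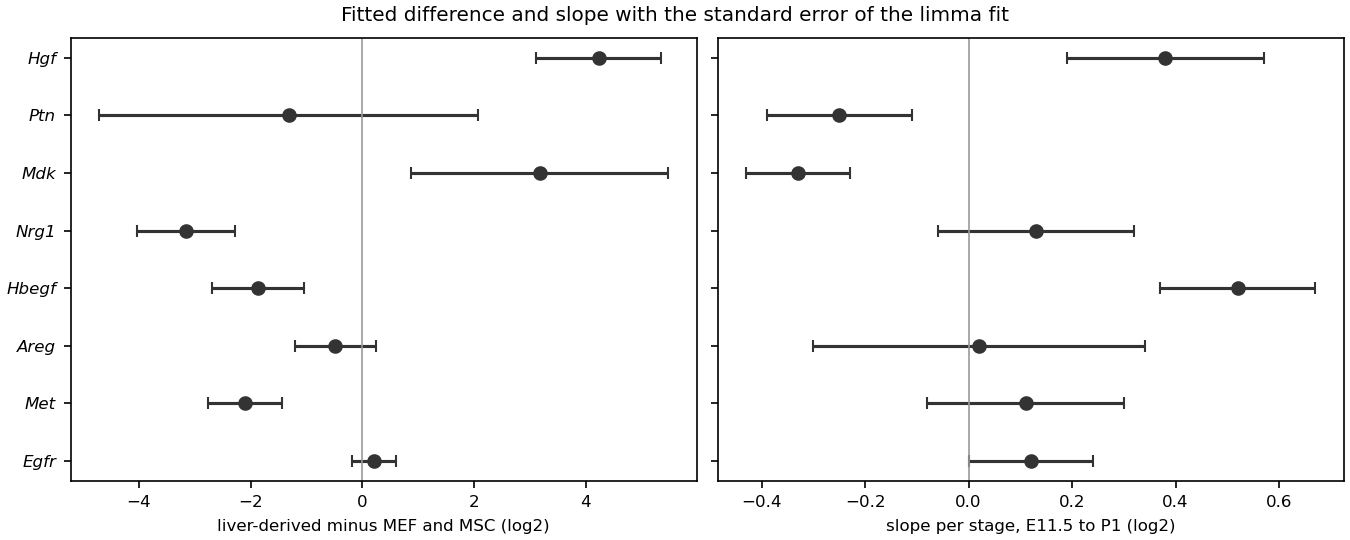
Fitted difference between the 6 liver-derived arrays and MEF and MSC (left, log2) and fitted slope per stage from E11.5 to P1 (right, log2 per stage) for each of the 8 genes, with bars of 1 SE from the limma fit. Hgf at 4.23 and Nrg1 at -3.15 lie farthest from 0 relative to their bars on the left, and Mdk at -0.33 and Hbegf at 0.52 on the right.

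Differences between single arrays were larger. Between adult HSC and P1, 4 of the 7 genes measured were at least 4-fold apart, against 17.1% of genes: Hgf higher, where 4.61% were, and Ptn, Mdk and Nrg1 lower, where 12.5% were. Hbegf was 2.59-fold lower in adult HSC. Met (-0.53 on the log2 scale) and Egfr (-0.10) were within 4-fold, and under median normalization their differences took the other sign, at 0.26 and 0.68. Between MSC and MEF 4 of 8 were at least 4-fold apart, against 15.1%: Met 5.39-fold and Hbegf 6.73-fold higher in MSC, where 1.99% of genes were, and Ptn 26.1-fold and Mdk 231-fold lower, where 13.1% were. Nrg1 was 2.67-fold higher in MSC, and median normalization raised its log2 difference from 1.41 to 2.03, past 4-fold. Areg was 2.58-fold higher and Egfr 2.04-fold lower in MSC, and Hgf differed by -0.15 on the log2 scale. These pairs have 1 array a side and no test.

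The proteins that activate Hgf or work with Met were read as a list of 17, all tested. Limma called 1 higher in the liver cells, Plxnb1, a semaphorin receptor that associates with Met, and 1 lower, Plau, the urokinase protease that can activate Hgf, against 0.844% and 0.728% of all genes. Plxnb1 read -1.20 to -0.70 on the p75NTR arrays, 0.25 in adult HSC, -2.68 in MEF and -3.27 in MSC, a difference of 2.24 ± 0.41 (SE, log2; limma adjusted p = 0.0479). Plau read -0.89 in MEF and 1.01 in MSC and was well above background on only the E17.5 (-5.17) and P1 (-4.82) liver arrays, at least 47.7-fold lower in the liver cells with the 4 dim arrays at their background limit (fitted difference -6.04 ± 0.79, limma adjusted p = 0.0154). The median of the list was 2.15. That median includes plasma proteins made by hepatocytes, and the following were picked after their values were seen. Hgfac, the Hgf activator, read 2.81 at E14.5 and -4.80 in adult HSC; Hpn, the protease hepsin, 3.18 and -1.15; Plg, plasminogen, 3.93 and -4.88; and Mst1, the Hgf-like ligand of Mst1r, 1.94 and -2.25. All 4 were highest at E14.5, the array with the highest hepatocyte marker sum, and the part of those cells was not tested. Over the whole list 10 of 17 liver differences had an unadjusted limma p under 0.05, against 19.6% of all genes. Limma called 0 of 17 slopes, with 1 at an unadjusted p under 0.05, against 28.1%.

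Of 15 receptors and binding proteins for Ptn and Mdk tested, limma called 0 in the liver comparison and 0 slopes. In the liver comparison 2 had an unadjusted limma p under 0.05, against 19.6% of all genes, and the median was 0.09. For the slopes 6 did, against 28.1%, and the median was 0.30. Among the integrin subunits the liver difference was 3.78 ± 1.49 (SE, log2) for Itgb3 and -2.81 ± 1.71 for Itga6. For Itga4, not well above background in adult HSC or MSC, it was 3.10 with these arrays at their background limit. The steepest slopes were 0.59 for Ptprz1, the receptor phosphatase that both ligands bind, 0.58 for the heparan sulfate proteoglycan Sdc4, and 0.53 for Itgb3. Ptprz1 was highest in MEF at 1.78, where Ptn was also highest, and was not well above background in MSC.

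Among the other EGF-type ligands limma called 0 of 7 in the liver comparison (0 unadjusted; median 0.27) and 0 of 5 slopes (0 unadjusted). Tgfa, at -4.38, and Nrg4 were well above background only in adult HSC and entered the fit through that array, so their differences are not given. Btc was well above background at E14.5 and in adult HSC only, and no slope is given for it. Among those measured at all 5 stages the slope was 0.46 for Ereg and -0.39 for Egf. Of 14 ErbB receptors and regulators tested, limma called 0 in either fit, with medians of -0.19 and 0.01. At an unadjusted p under 0.05 were 4 liver differences and 2 slopes, against 19.6% and 28.1% of all genes. Erbb3 and Erbb4, the receptors of Nrg1, were not well above background on any array. Erbb2, which has no ligand of its own, stayed between -0.39 and 0.91. The largest liver differences were -2.49 ± 0.61 for the tetraspanin Cd9, which binds the HB-EGF precursor, and -1.86 ± 0.64 and -1.32 ± 0.56 for Lrig3 and Lrig1.

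Genes with the pattern most like each of the 8 were found by Pearson correlation over the 8 arrays among 14098 genes well above background on at least 4 arrays. For Hgf they were Rxra (0.995), Gpat2 (0.995) and Papln (0.993), each still at 0.99 without MSC and adult HSC. For Nrg1 they were Unc79 (0.995), Dusp14 (0.993) and Klf5 (0.985), and for Hbegf Lrrc8e (0.972), Il11 (0.972) and Zyx (0.965). Among those closest to Mdk were Asxl3 (0.994) and AW551984 (0.993), which were at 0.70 and 0.56 on the 6 arrays without adult HSC and MSC. Ptn was closest to Tmem200a (0.989), Ctxn1 (0.988) and Arhgdig (0.984), and Met to Tmem147 (0.989), Slc39a14 (0.970) and Rad51d (0.958). The nearest to Egfr were Armcx3 (0.906), Pcdh20 (0.889) and Selenon (0.886), and to Areg Terc (0.895), Gm35438 (0.880) and Hspa8 (0.819). These correlations rank genes over arrays that share their scaling, and a high value among so many genes is a description only. Between the 8 genes themselves the correlations over 8 arrays ran from -0.92 for Hgf and Nrg1 to 0.78 for Met and Hbegf.

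**Figure D4:**
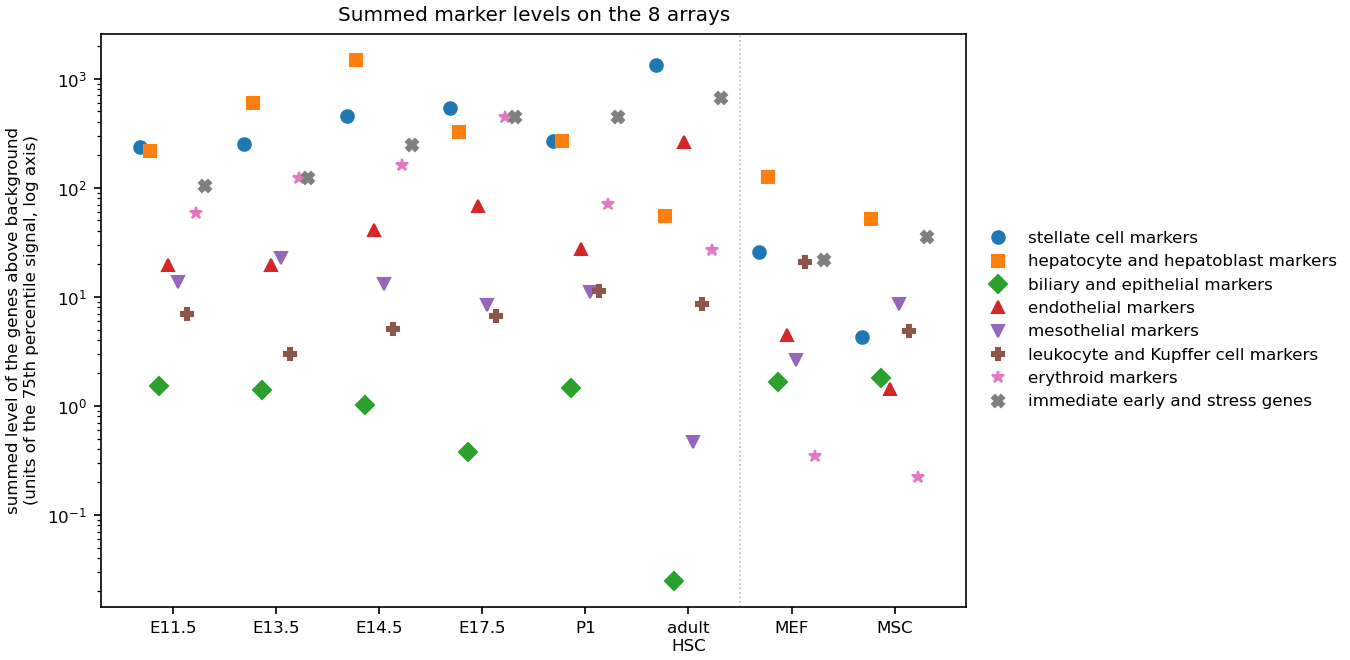
Summed level of the markers of each cell type that were well above background (y axis, log scale, units of the 75th percentile signal of the array) on each of the 8 arrays (x axis), 1 symbol per list. Hepatocyte and hepatoblast markers peak at E14.5 with 1486, stellate cell markers in adult HSC with 1322, and immediate early genes in adult HSC with 670.2.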

How the data were processed

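The authors' scanner files hold the intensity of each Cy3 spot as a background-subtracted processed signal made by Agilent Feature Extraction 11.5.1.1, per the file headers, and the arrays were not normalized to each other. The deposited log2 table was used as an alternative; it follows these signals scaled by the 75th percentile, and its column medians were -4.50 to -3.58. Here the log2 processed signal minus the log2 75th percentile of the array was used, without a pseudocount. Outlier spots were left out, spots of a probe averaged, and for a gene with several probes the probe with the highest mean taken. Probes were named by accession through a RefSeq table (67.4% of 39429), and 202 probes with no usable spot on an array were left out.

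Genes that passed the scanner's background flag on 1 or more of the arrays compared entered limma 3.58.1 (R 4.3.3) fits with Benjamini-Hochberg adjustment over all genes and a threshold of 0.05: 6 liver-derived arrays against MEF and MSC, and a straight line over the order of the 5 stages. Both fits were also run on simulated data with independent noise, of equal size on every array for a given gene. That run does not show how the fits perform where the arrays of a side differ in stage or cell type. Pairs of arrays have no test and 4-fold or more was counted; a side below background gives a bound. Alternatives were normexp background correction (offset 50), median and quantile normalization, other filters, the mean of all probes, another prior, slide, and leaving out each array.

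All 8 genes are named. From other lists, genes past a fit are named, or the 3 with the largest liver difference or slope, and any others named were chosen after their values were seen. For each of the 8, the 3 genes with the highest Pearson correlation are named, except 1 that is not reported here. The genes and lists were chosen with earlier results of these data known. No group has a replicate, so the number of arrays limits the precision.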

Additional observations from a re-analysis of the deposited data

How the results depend on the processing

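No paired analysis was possible because each group has 1 array. The number of genes limma called between liver cells and MEF and MSC was 259, and it was 51 with normexp background correction, 160 with genes well above background on every array, 74 with slide as a block and 0 on slide 2 alone (1446 at an unadjusted p under 0.05). Leaving out 1 array gave 82 (without E17.5) to 1277 (without MEF). Without E13.5, E14.5, P1 and adult HSC the counts were 93, 89, 164 and 524. Of the 8 genes 0 to 1 were called when 1 array was left out. Over the stages 0 genes were called (4347 at an unadjusted p under 0.05), against 101 with quantile normalization, 672 with genes above background on every array and 1152 with a trend and robust prior; 0 of the 8 genes were called in any of these. The cause of these changes was not tested.

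In the liver comparison the sign turned for Ptn (0.69 without adult HSC, 1.03 without MEF, -3.68 without MSC, and -5.37 with slide as a block), Mdk (-0.74 without MSC, up to 7.11 without MEF), Areg (0.72 with normexp, 0.20 without MSC, down to -1.16 without MEF) and Egfr (-0.17 with median normalization, -0.30 with the mean of its probes, -0.31 without MSC). Slopes turned for Met (-0.27 with normexp), Nrg1 (-0.12 without P1, up to 0.43 without E11.5) and Areg (-0.31 with normexp, -0.02 with median and -0.03 with quantile normalization, -0.21 without E13.5, -0.08 without E17.5, up to 0.38 without E11.5). Hgf, Nrg1, Hbegf and Met kept the sign of the liver difference in all 18 alternatives, but several of these could not change it. Each of these genes has a single probe, so other filters, another prior and the mean of all probes leave the value as it was. Slide as a block and slide 2 alone give the same estimate, since MEF and MSC are both on slide 2. Leaving out MEF or MSC leaves 1 array on that side, assumed to vary like the others. Leaving out adult HSC or P1 also serves as the fits on p75NTR arrays or fetal arrays alone. With genes required above background on every array, Ptn and Areg have no liver value and Areg no slope.

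Median normalization moved the median liver difference of all genes from 0.02 to -0.35, and normexp to 0.35. The spike-in slope was 0.849 at E11.5 and 0.922 to 0.933 elsewhere. The lowest level well above background was -6.58 to -5.36, which limits Areg and the adult HSC value of Ptn.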

Other observations

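Feedback genes of the ERK pathway, which both Met and ErbB receptors activate, gave 0 calls of 15 by limma in the liver comparison and 0 slopes. In the liver comparison 7 had an unadjusted limma p under 0.05, against 19.6% of all genes. The median difference was 0.83, against 0.02 over all genes. For the slopes 5 had an unadjusted limma p under 0.05, against 28.1% of all genes. The largest liver differences were 5.24 ± 1.87 (SE, log2; limma adjusted p = 0.195) for the inhibitor Spry1, 3.46 ± 0.81 (0.0902) for the ETS factor Etv1 and -2.57 ± 0.94 (0.201) for Etv4. Spry1 read 1.50 at E11.5, 1.64 at E13.5, 2.53 at E14.5, 3.33 at E17.5, 3.24 at P1, 4.69 in adult HSC and 1.64 in MEF, and was not well above background in MSC, where Met was highest. The steepest slopes were 1.08 for Ier3, 0.53 for Phlda1 and 0.52 for Spry1. Ier3 also belongs to the immediate early genes, whose sum was also higher at the later of these stages.

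Of 12 other mesenchymal growth signals for hepatocytes tested, limma called 1, the FGF ligand Fgf7, as lower in the liver cells, against 0.728% of all genes. Its liver difference was -5.61 ± 0.88 (SE, log2), with a limma adjusted p of 0.0299. Fgf7 read -5.17 at E13.5 and -2.04 at P1 within the p75NTR arrays, -5.45 in adult HSC, 1.33 in MEF and 1.28 in MSC. Slopes gave 0 calls by limma, with 5 of 12 at an unadjusted p under 0.05, against 28.1% of all genes. The steepest were 2.30 for Il6, 1.51 for the Axl ligand Gas6 and 0.77 for Ccn2. Il6 was not well above background at E11.5 or E13.5 and read 0.77 at P1, so the size of its slope rests in part on readings at the background. From P1 to adult HSC 7 of 11 were at least 4-fold lower and 1 higher, against 12.5% and 4.61% of all genes. Igf2, picked after its values were seen, had 222-fold less signal in adult HSC than in P1 cells, where Ptn and Mdk were also lower, and the Wnt agonist Rspo3, also picked afterwards, had 10.1-fold more, where Hgf was also higher.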
